A study of Mus musculus with 16 samples.

Results

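The activating mark H3K27ac was set against the Polycomb mark H3K27me3 in Mettl14 knockout mouse embryonic stem cells (mESCs), using the 4 knockout peak lists of these marks, picked by mark and genotype from the sample titles. These are 4 of the 12 peak lists of the series, with 53124 of its 117176 peaks. The series examined histone modifications in mESCs after loss of METTL14, which works with METTL3 to place N6-methyladenosine (m6A) on RNA. The knockout is labelled CKO, which the labels do not spell out, and nothing in the labels says which part of Mettl14 is lost or whether the line is a single clone. Knockout and control cells were of the C57BL/6 strain and were grown in serum with LIF, the GSK3 inhibitor CHIR99021 and the MEK inhibitor PD0325901, which together hold mESCs undifferentiated. Each mark had 2 libraries per genotype, and since the labels name no separate cultures, p-values measure only the spread between these libraries, which may be technical. The same 2 marks in control cells (42576 peaks) and H3K4me3 in knockout cells (16186 peaks) serve below for comparison.

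Acetylation and trimethylation compete for the same residue, lysine 27 of histone H3, so a single histone tail cannot carry both. H3K27ac is written by the acetyltransferases p300 and CBP at active promoters and enhancers. H3K27me3 is written by EZH2 within Polycomb repressive complex PRC2, and in mESCs it lies over CpG-rich promoters of developmental regulators that are silent until differentiation.

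A peak list holds positions and widths only, with no read number or height, so read depth behind each peak is unknown and a missing peak is not evidence that the mark is absent. The smallest peak in every list is 501 bp wide. One label is at odds with the titles: for H3K27ac, the antibody named is the one listed for H3K4me3. Between 20.9% and 23.8% of knockout H3K27ac peaks overlapped a knockout H3K4me3 peak, depending on the pair of libraries, and 39.3% to 44.4% of the H3K4me3 peaks, whose lists are shorter, overlapped an H3K27ac peak. By comparison, 62.5% and 63.0% of H3K4me3 peaks were found again in the other H3K4me3 library. For H3K27me3 peaks the overlap with H3K4me3 was 2.93% to 3.91%. The libraries are called H3K27ac here by title, and the antibody itself was not tested.

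H3K27ac lists were longer than H3K27me3 lists and, over all peaks, held wider ones. H3K27ac replicates 1 and 2 held 15271 and 15058 peaks, and H3K27me3 replicates 1 and 2 held 11349 and 11446, a 1.33-fold difference in means. Covered length was 15.9 and 16.0 Mb for H3K27ac and 10.1 and 10.5 Mb for H3K27me3, or 15.95 ± 0.0446 against 10.3 ± 0.280 Mb (mean ± SD, n = 2 each, 1.55-fold). The libraries of the marks did not overlap in either measure. Peaks of the minimum width made up 46.2% ± 0.786 of H3K27ac and 55.6% ± 0.818 of H3K27me3 peaks. Peaks over 2 kb were 11.3% ± 0.201 of the H3K27ac and 7.87% ± 0.573 of the H3K27me3 peaks. Each of these contrasts separated the marks without overlap, with an exact two-sided permutation p = 0.33, the smallest that 2 libraries against 2 can give.

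**Figure D1:**
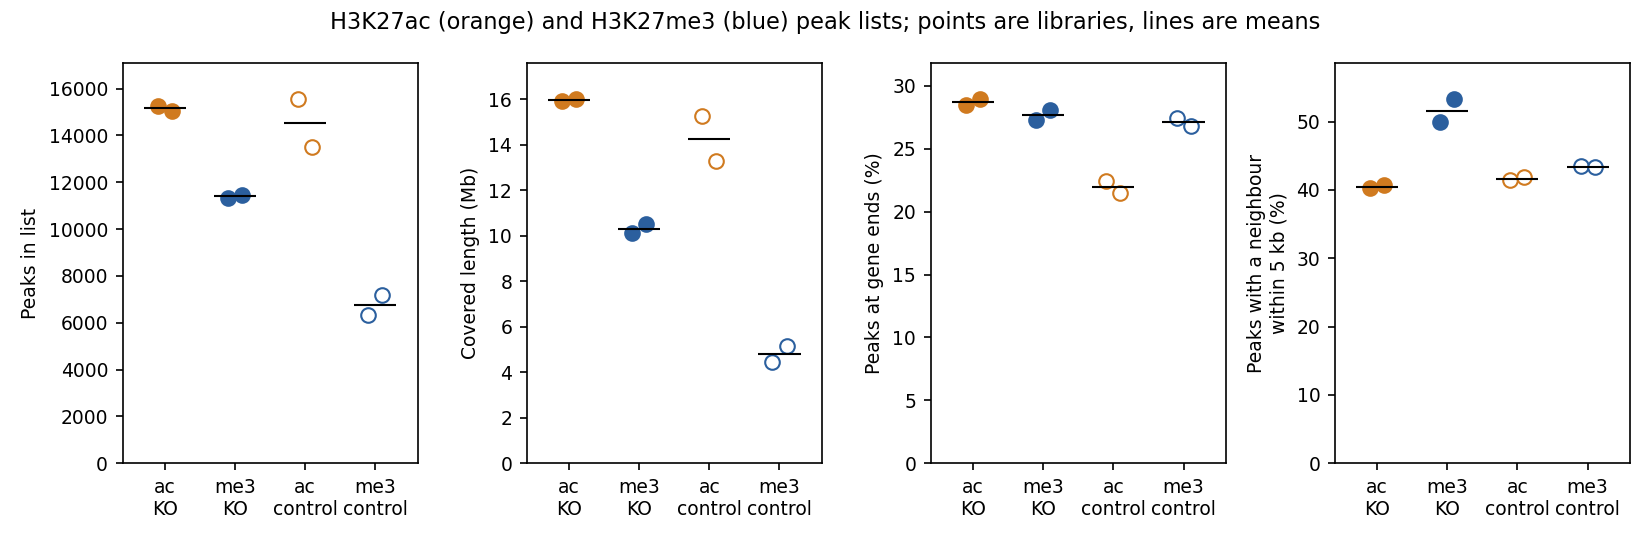
Peaks per list, covered length in Mb, share of peaks at gene ends and share with a neighbour of the same list within 5 kb, for H3K27ac (orange) and H3K27me3 (blue); each point is 1 library, filled for knockout and open for control, and the line is the mean of 2. The knockout H3K27ac lists cover 15.9 and 16.0 Mb, above the 10.1 and 10.5 Mb of H3K27me3.

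Width depended on where a peak lay, and differently for the marks. Among H3K27me3 peaks, 18.6% and 20.1% of those at gene ends (within 1 kb of either end of a protein-coding gene) exceeded 2 kb, against 1.73% and 2.55% of intergenic ones. Among H3K27ac peaks, 13.1% and 13.4% at gene ends and 12.8% and 12.7% of intergenic peaks exceeded 2 kb. For H3K27me3 the share of wide peaks was thus far higher at gene ends than between genes, and for H3K27ac it was close in both places. A like contrast was seen in regions called in both lists of a mark (merged regions with a peak from each list), 6014 for H3K27ac and 3165 for H3K27me3. Over these regions the order of the marks in width turned, with medians of 1516 bp for H3K27ac and 1561 bp for H3K27me3, and of 1498.5 and 2068 bp at gene ends. Of the 248 such H3K27me3 regions over 5 kb 79.4% touched a gene end, against 27.1% of the 373 H3K27ac regions over 5 kb.

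**Figure D2:**
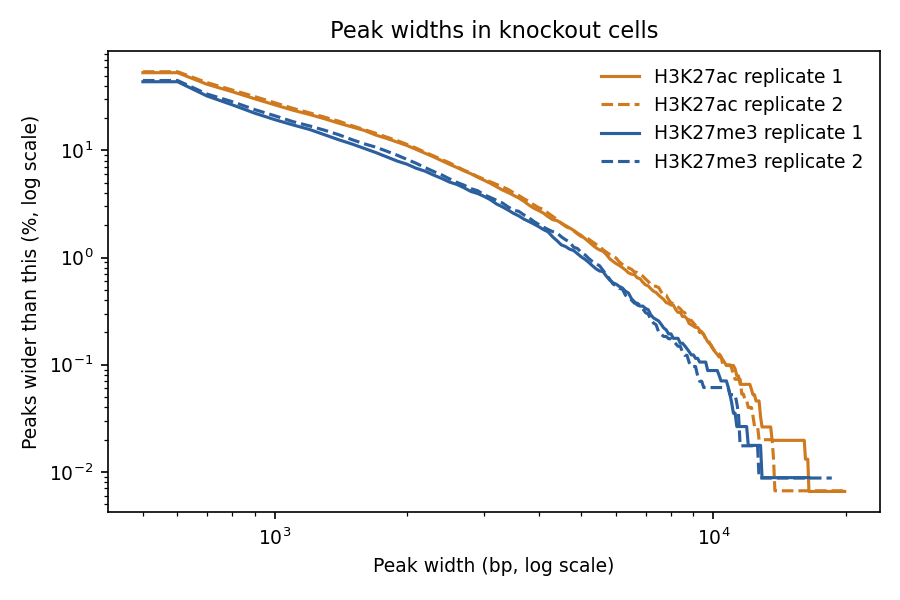
Share of peaks wider than a given width in the 4 knockout lists (both axes logarithmic; H3K27ac orange, H3K27me3 blue, replicate 1 solid and replicate 2 dashed). The H3K27ac curves lie above the H3K27me3 curves over most of the range; 245 and 236 H3K27ac peaks and 115 and 127 H3K27me3 peaks exceed 5 kb.

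The widest H3K27ac region, 21562 bp at chr7:3199287-3220848, touched an end of Nlrp12, which encodes a NOD-like receptor, and held the miR-290 cluster, the main microRNA cluster of mESCs. The next 4 were 16456 bp within Myo10, a motor protein of filopodia, and 16171, 15529 and 15224 bp nearest to Kat6b, Tnfsfm13 and Tet1, with no gene end touched. Kat6b encodes an acetyltransferase and Tet1 an enzyme that oxidises 5-methylcytosine. The 5 widest H3K27me3 regions touched Onecut3 (19061 bp), Pax2 (18240 bp), Neurod2 (17498 bp), Lhx5 (16594 bp) and Apc2 (14976 bp). Onecut3, Pax2, Neurod2 and Lhx5 encode transcription factors, and Apc2 a neuronal relative of the APC protein. These are merged spans: at Onecut3 the single peaks were 7192 bp in replicate 1 and 18662 bp in replicate 2, and at Pax2 4845 and 2912 bp at the gene ends.

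Over all peaks, the marks were close in position. Gene ends took 28.5% and 28.9% of H3K27ac peaks and 27.3% and 28.1% of H3K27me3 peaks, which put H3K27ac higher by 1.02 points (exact permutation p = 0.33). Its sign turned to -7.24 points with windows of 2500 bp in place of 1 kb, and to -3.63 when peaks of minimum width were left out, so no direction is drawn from it. Gene bodies took 40.3% ± 0.509 and 39.0% ± 0.315 of peaks, and intergenic positions 31.1% ± 0.169 and 33.4% ± 0.219 (n = 2 each, exact permutation p = 0.33). Without minimum-width peaks these too changed sign, the gene bodies from 1.30 to -2.03 points and the intergenic difference from -2.32 to 5.66. Regions called in both lists stood further apart, with 42.4% of H3K27ac and 50.3% of H3K27me3 regions at gene ends and 27.8% and 18.8% intergenic.

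H3K27me3 peaks lay closer together. A second peak of the same list within 5 kb was found for 49.9% and 53.2% of H3K27me3 peaks and 40.3% and 40.6% of H3K27ac peaks, although the H3K27ac lists were longer (means 51.6% and 40.5%, exact permutation p = 0.33). Replicates of H3K27ac shared more, with 41.4% and 41.8% of peaks found again in the other list, against 30.6% and 30.3% for H3K27me3. In both marks the peaks found in a single list were mostly narrow, 64.8% and 64.2% of them at minimum width for H3K27ac and 68.4% and 67.0% for H3K27me3.

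At gene ends the marks divided the genes into nearly separate groups. Of 21887 protein-coding genes, 3155 (14.4%) had H3K27ac and 1717 (7.84%) had H3K27me3 in both knockout lists, and 32 genes (0.146%) had both marks in all 4 lists. H3K27ac alone, with no H3K27me3 in either list, was found at 3043 genes (13.9%), and H3K27me3 alone at 1485 (6.78%). A further 80 genes had H3K27ac in both lists and H3K27me3 in 1, and 200 the reverse. At 4994 genes the calls rested on single lists, and 12053 (55.1%) had neither mark in any list. Among genes with H3K27ac in both lists 1.01% had H3K27me3 in both, against 7.84% of all genes, and among H3K27me3 genes 1.86% had H3K27ac, against 14.4% of all. Single lists called more genes, 4833 and 4820 for H3K27ac and 2778 and 2856 for H3K27me3, and with any 1 of the 4 libraries left out the genes with both marks numbered 68 to 132. The 32 became 11 without minimum-width peaks and 10 or 92 with gene-end windows of 500 or 2500 bp. Long non-coding RNA genes were called less often, with H3K27ac alone at 656 (5.15%), H3K27me3 alone at 447 (3.51%) and both at 10 of 12727.

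Genes of the early embryo were among the 10 genes with H3K27ac alone and the widest peaks. Nanog, a core transcription factor of pluripotency, had peaks of 8423 and 8321 bp in the H3K27ac replicates and no H3K27me3. Dppa5a and Ooep, neighbours expressed in oocytes and early embryos, shared peaks of 8786 and 10939 bp. The other genes of the widest 10 were Nlrp12 (21106 and 21562 bp), Gabarapl2 (11498 and 11557 bp), Arih2 (11258 and 10432 bp), Eif2s2 (10045 and 11173 bp), Usp48 (10205 and 10038 bp), Jam2 (10446 and 9990 bp) and Arl14epl (9908 and 7910 bp). Eif2s2 encodes a translation initiation factor, Gabarapl2 an autophagy protein, Arih2 a ubiquitin ligase and Usp48 a deubiquitinase. All 10 had H3K27ac in both control lists as well. Gabarapl2 differed from the others in its control widths, 882 and 1892 bp.

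The 10 genes with H3K27me3 alone and the widest peaks included 5 transcription factors. Lhx5, a LIM homeobox factor of the forebrain, had peaks of 16594 and 11362 bp in the H3K27me3 replicates and no H3K27ac. Neurod2, a proneural factor, had 11941 and 10853 bp, and its whole gene span (100%) lay in the merged region, although the replicate 1 peaks left a gap within it. Dll4, a Notch ligand, had 9644 and 9140 bp, and the transcription factor genes Nkx2-2, Evx1 and Hic1 10759 and 7636 bp, 9281 and 7454 bp, and 8021 and 7235 bp. None of the 10 had an H3K4me3 peak. Of the 1485 genes of the class, 208 had more than 50% of their span under H3K27me3 regions. Of the 3043 genes with H3K27ac alone, 166 had more than 50% under H3K27ac regions. Among all 21887 genes the counts were 253 for H3K27me3 and 168 for H3K27ac.

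Promoters with either mark were richer in CG than those with neither. Promoters are the RefSeq windows of GRCm38.p6, 250 bases before to 50 after a start, given for 17492 of the genes, and the feature counted is the dinucleotide CG, which reads the same on both strands. The median was 23 CG for genes with H3K27ac alone, 20 for H3K27me3 alone, 23 for both marks, 5 for neither, and 13 over all. At least 10 CG were found in 88.5% of promoters with H3K27ac alone and 78.4% with H3K27me3 alone, against 57.2% of all promoters. The calls also lay at starts: of genes with a promoter entry, 89.5% of the H3K27ac class and 79.5% of the H3K27me3 class were called within 1 kb of a RefSeq start in both lists.

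The range is shown by 4 promoters from RefSeq, chosen after their values were seen. Nanog and Klf4, both pluripotency factors under H3K27ac in both lists, stand at opposite ends of CG content with 4 and 40. Hnrnpu, an RNA-binding protein gene, is a CG-rich acetylated promoter with 41, and Neurod2 lies under H3K27me3 in both lists with 16. Every CG is in capitals.
Nanog (chr6:122707239-122707538, plus strand): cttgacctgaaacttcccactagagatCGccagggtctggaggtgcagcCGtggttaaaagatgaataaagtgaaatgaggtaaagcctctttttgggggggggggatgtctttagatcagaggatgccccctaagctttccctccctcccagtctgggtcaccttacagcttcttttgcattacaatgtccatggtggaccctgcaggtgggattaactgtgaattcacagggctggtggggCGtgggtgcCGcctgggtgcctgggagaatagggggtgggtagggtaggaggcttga
Klf4 (chr4:55532426-55532725, minus strand): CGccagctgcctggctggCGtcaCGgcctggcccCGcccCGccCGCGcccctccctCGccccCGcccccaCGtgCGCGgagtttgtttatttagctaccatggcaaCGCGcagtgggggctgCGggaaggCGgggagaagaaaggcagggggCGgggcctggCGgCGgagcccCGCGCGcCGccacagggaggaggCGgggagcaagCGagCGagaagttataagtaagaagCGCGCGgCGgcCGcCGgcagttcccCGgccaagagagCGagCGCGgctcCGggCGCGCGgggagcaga
Hnrnpu (chr1:178337766-178338065, minus strand): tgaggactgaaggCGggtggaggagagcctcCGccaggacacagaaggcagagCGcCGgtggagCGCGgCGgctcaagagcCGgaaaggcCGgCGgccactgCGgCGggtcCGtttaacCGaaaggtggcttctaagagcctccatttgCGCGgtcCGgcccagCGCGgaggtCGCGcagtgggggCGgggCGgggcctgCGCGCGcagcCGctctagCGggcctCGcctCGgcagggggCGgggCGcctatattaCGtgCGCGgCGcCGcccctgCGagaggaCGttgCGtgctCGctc
Neurod2 (chr11:98329596-98329895, minus strand): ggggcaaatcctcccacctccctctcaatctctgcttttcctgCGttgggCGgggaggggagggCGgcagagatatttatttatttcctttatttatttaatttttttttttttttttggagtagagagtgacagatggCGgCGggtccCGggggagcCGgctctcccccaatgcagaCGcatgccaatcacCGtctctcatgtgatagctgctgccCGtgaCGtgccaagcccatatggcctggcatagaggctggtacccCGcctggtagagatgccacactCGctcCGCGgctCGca
Klf4 had H3K27ac peaks of 4011 and 4357 bp and Hnrnpu of 3056 and 3288 bp. Nanog shows that a wide acetylated domain was also called over a promoter with few CG.

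H3K4me3, a mark of active and poised promoters that was not used to form the classes, was called in both knockout lists at 5242 genes (24.0%). It was found at 75.7% of genes with H3K27ac alone, 5.52% of those with H3K27me3 alone, 40.6% of the 32 with both and 9.25% of those with neither. With a single H3K4me3 library the share for H3K27me3 alone was 12.7% to 13.7%. No H3K4me3 call was made in either list at 79.2% of the genes with H3K27me3 alone, close to the 80.8% of genes with neither mark. Over all genes this share was 62.2%. Away from its own ends, a gene with H3K27ac alone had a further H3K27ac region within 50 kb that touched no gene end in 39.1% of cases, against 15.4% for H3K27me3 alone, 16.0% for neither and 21.5% of all genes.

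The naive and core pluripotency genes were mostly acetylated, with wide peaks. Of 25 such genes 14 (56%) had H3K27ac alone, 2 (8%) H3K27me3 alone and 3 neither mark. Over all genes the shares were 13.9%, 6.78% and 55.1%, so the H3K27me3 count was near that of all genes. The median width over those with H3K27ac in both lists was 4323.5 bp, against 1170.5 bp for all genes with H3K27ac alone. Pou5f1, which encodes OCT4, had H3K27ac peaks of 5938 and 9027 bp, Sox2 of 4504 and 2548 bp, Klf2 of 6104 and 2935 bp, and Tbx3 of 7438 and 5390 bp. None of these 4 had H3K27me3. Esrrb, an orphan nuclear receptor of the naive state, went the other way at its start, with H3K27me3 peaks of 767 and 501 bp and no H3K27ac within 1 kb of either end, while 13.0% of its gene body lay under H3K27ac regions. Dppa3, an oocyte and germline factor, had H3K27me3 peaks of 501 and 501 bp, the minimum width. Lin28a, a regulator of let-7, had neither mark at its ends, with 19.5% of its span under H3K27ac. Of 19 formative and primed genes 2 (10.5%) had H3K27ac alone, near the share of all genes, among them Nodal with 7707 and 7492 bp. H3K27me3 alone was called at 4 (21.1%). Fgf5 had H3K27me3 peaks of 501 and 811 bp and Pou3f1 of 5760 and 3307 bp.

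Markers of other cell types that a culture could hold were examined next, with 13.9% of all genes having H3K27ac alone and 6.78% H3K27me3 alone. Of 15 fibroblast markers, which would come from feeder cells, 1 had H3K27ac alone (Fn1) and none had H3K27me3 in both lists, while Col1a2, Col3a1 and Vim had no peak of either mark at their ends. Primitive endoderm markers had 0 of 13 with H3K27ac alone and 3 with H3K27me3 alone, among them Foxa2 with 4023 and 5018 bp. Trophectoderm markers had 1 of 14 with H3K27ac alone, 3 with H3K27me3 alone and 1, Gata3, with both. In these short lists the H3K27ac counts were near or below the share of all genes.

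Transcription factor families of later development were often called for H3K27me3. Of 39 Hox genes, which pattern the body axis, 29 (74.4%) had H3K27me3 alone, 1 had H3K27ac alone and 1 both (Hoxc13). Single peaks covered 38.8% and 33.5% of the Hoxa cluster in the H3K27me3 lists, 27.02% and 21.1% of Hoxb, 24.4% and 23.7% of Hoxc, and 26.2% and 26.1% of Hoxd. H3K27ac covered at most 2.07% of any cluster. Hoxa2 had H3K27me3 peaks of 3039 and 3001 bp. H3K27me3 alone was called at 8 of 14 Nkx genes, 11 of 20 proneural bHLH genes, 7 of 12 Irx and sine oculis homeobox genes, 5 of 12 Lhx and Lmx genes, 4 of 9 Pax genes and 7 of 17 Sox genes of differentiating lineages, with H3K27ac alone at 0 genes in each of these lists, against 13.9% of all genes with H3K27ac alone and 6.78% with H3K27me3 alone. The median width over the called Lhx and Lmx genes was 4378.5 bp, and over the called Pax genes 1110 bp, against 1339.5 bp for all genes with H3K27me3 alone. Wnt1, a signalling ligand of the midbrain, had 6115 and 6710 bp.

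Other families had members of both classes. For H3K27ac alone their shares were 9.09% (Forkhead), 11.8% (T-box), 4.55% (Fgf) and 20% (Bmp and Gdf), against 13.9% of all genes. For H3K27me3 alone they were 38.6%, 35.3%, 31.8% and 20%, against 6.78%. Of 44 Forkhead genes 17 had H3K27me3 alone and 4 H3K27ac alone. Foxm1, a cell cycle factor, had H3K27ac peaks of 769 and 1146 bp, while Foxb1, a factor of the embryonic brain, had H3K27me3 peaks of 4715 and 5563 bp. Of 17 T-box genes 6 had H3K27me3 alone, with Tbx1 at 5653 and 8901 bp, and 2 had H3K27ac alone, Tbx3 and Mga. Among 22 Fgf ligand genes, Fgf4, the main FGF of mESCs, was the 1 with H3K27ac alone (4290 and 7520 bp) beside 7 with H3K27me3 alone, such as Fgf9 (5790 and 2173 bp). Bmp and Gdf ligands divided evenly, 4 and 4 of 20, with Gdf3 (H3K27ac, 4690 and 4323 bp) and Bmp4 (H3K27me3, 2288 and 2034 bp) on opposite sides.

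Channels, receptors and imprinted genes were called for H3K27me3 more often than for H3K27ac. Over all genes 6.78% had H3K27me3 alone, 13.9% H3K27ac alone, 0.146% both and 55.1% neither. Of 92 potassium channel genes 28 (30.4%) had H3K27me3 alone, 0 H3K27ac alone, 29 neither mark and 2 both, Kcnab2 and Kcnab3. GABA and glutamate receptors had 16 of 45 (35.6%) with H3K27me3 alone, 0 with H3K27ac alone and 12 with neither mark. Of 20 imprinted genes 5 (25%) had H3K27me3 alone, 0 H3K27ac alone and 9 neither mark, and Cdkn1c, a cell cycle inhibitor, had H3K27me3 peaks of 2752 and 5564 bp. Olfactory receptor genes, expressed in nasal neurons, had neither mark at 1098 of 1106, and their median promoter held 1 CG.

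Housekeeping gene lists had H3K27ac alone at a higher share than the 13.9% of all genes. Of 84 cytosolic ribosomal protein genes 67 (79.8%) had H3K27ac alone and none had H3K27me3 in either knockout list. At least 1 list called H3K27me3 at 17.9% of all genes. Rpl3 had H3K27ac peaks of 4039 and 4532 bp. H3K27ac alone was called at 40 of 54 splicing factor genes, 10 of 19 replicative helicase and origin genes, 17 of 39 proteasome genes (43.6%), 22 of 78 mitochondrial ribosomal protein genes (28.2%) and 36 of 64 histone genes of the replication-dependent clusters and H1 family. Neither mark was called at 11 proteasome and 30 mitochondrial ribosomal protein genes, and each of these 2 lists had 1 gene with H3K27me3 alone. Neighbouring histone genes can share a peak. H1f2, a linker histone, had 10691 and 6559 bp.

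PRC2 genes, and the pooled genes for histone acetyltransferases and H3K27 demethylases, mostly had H3K27ac alone. Of 14 PRC2 genes 9 had H3K27ac alone and 0 H3K27me3 alone. Ezh2, the catalytic subunit, had H3K27ac peaks of 1921 and 1854 bp, Eed 2604 and 2507 bp, and Suz12 1646 and 1857 bp. Of 12 genes for histone acetyltransferases and H3K27 demethylases 7 had H3K27ac alone. Ep300, which encodes p300, had H3K27ac peaks of 2242 and 2427 bp. Histone deacetylase genes, with 3 of 18 under H3K27ac alone (16.7%), were close to the 13.9% of all genes. PRC1 genes were divided, with 4 of 21 under H3K27ac alone, such as Rnf2, and 2 under H3K27me3 alone, Cbx2 (1690 and 1783 bp) and Cbx8 (5927 and 4228 bp), which encode chromodomain subunits that read H3K27me3. Of 20 genes of the m6A machinery 15 had H3K27ac alone and none had H3K27me3 in either knockout list. Over all genes 13.9% had H3K27ac alone and 17.9% had H3K27me3 in at least 1 list. Mettl14 itself had H3K27ac peaks of 629 and 627 bp and no H3K27me3, and Mettl3 had no peak of either mark at its ends. A peak list does not check the loss of METTL14.

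**Figure D3:**
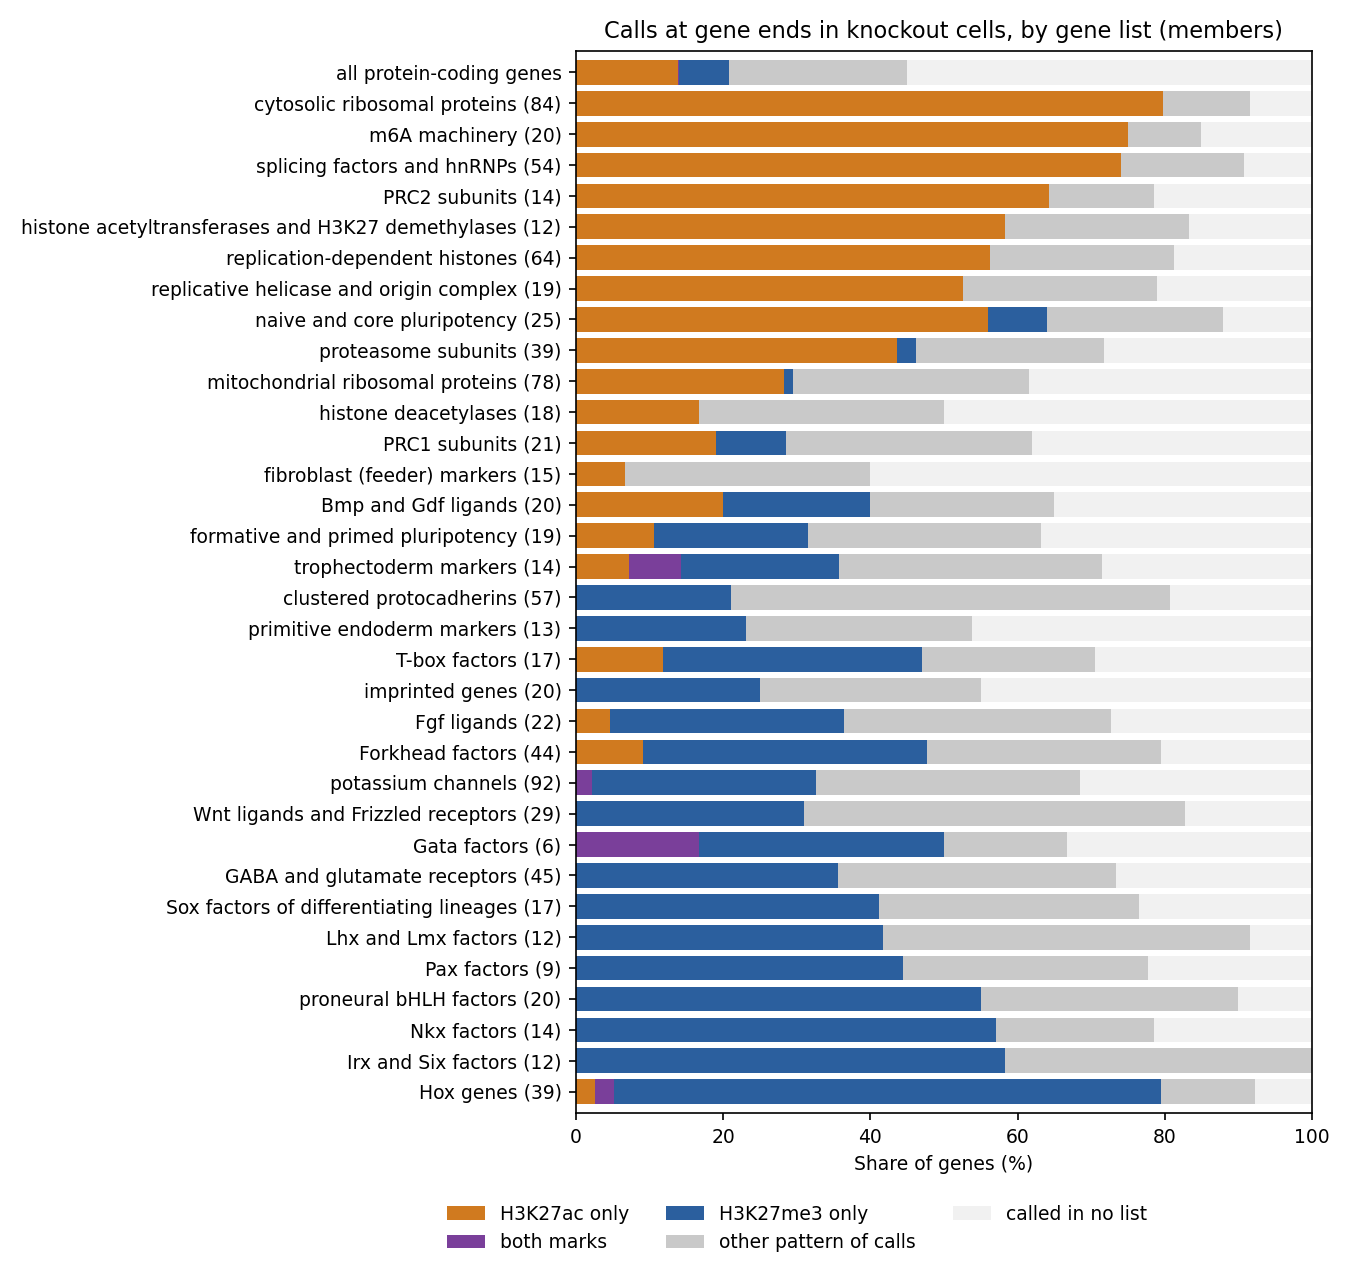
Share of genes in each knockout class for 33 gene lists (members in brackets) and all protein-coding genes; orange is H3K27ac alone, blue H3K27me3 alone, purple both marks in all 4 lists, dark grey other patterns of calls and light grey no call. The lists run from 79.8% H3K27ac alone in ribosomal protein genes to 74.4% H3K27me3 alone in Hox genes; olfactory receptors are not drawn.

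MicroRNA hairpins were few in either set of regions. Among 1005 RefSeq hairpins, 39 were in H3K27ac regions called in both lists and 22 in H3K27me3 regions (3.88% and 2.19%), with 0 in both, from which nothing is read at shares this small. Counting only hairpins touched by a peak of each list leaves 31 and 13. The miR-290 cluster lay in the widest acetylated region. Mir290a, Mir292, Mir291b and Mir293 were under the H3K27ac peaks of both lists (21106 and 21562 bp), while Mir294 and Mir295 lay past the end of the replicate 1 peak, under replicate 2 alone. Some of its arms are shown with an arm each of miR-200c (peaks of 1361 and 1120 bp) and let-7i (1689 and 1782 bp), also acetylated in both lists. The seed (bases 2 to 8) is in capitals. The sequences are from RefSeq, and the microRNAs shown were chosen after their values were seen.
miR-290a-3p: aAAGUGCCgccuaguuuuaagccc
miR-291b-3p: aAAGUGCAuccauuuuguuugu
miR-294-3p: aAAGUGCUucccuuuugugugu
miR-295-3p: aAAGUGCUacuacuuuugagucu
miR-290a-5p: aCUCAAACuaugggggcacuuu
miR-292a-5p: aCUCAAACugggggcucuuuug
miR-293-5p: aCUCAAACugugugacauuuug
miR-200c-3p: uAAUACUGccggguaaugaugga
let-7i-5p: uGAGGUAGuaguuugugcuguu
The first 4 share the seed letters AAGUGC and differ in the last base, with miR-294-3p and miR-295-3p identical in seed. The 3 arms from the other side of the hairpin share CUCAAAC. The seeds of miR-200c-3p and let-7i-5p differ from these, as do those of other arms of the cluster, such as miR-293-3p.

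Hairpins under H3K27me3 in both lists included microRNAs known from neurons and epithelia. Mir9-3 had H3K27me3 peaks of 6794 and 5948 bp, within a merged region of 14567 bp at chr7:79496131-79510697. Mir129-2 had 7742 and 5784 bp, Mir203 2731 and 3437 bp, Mir193a 1196 and 1864 bp, and Mir137 1158 and 501 bp. Their arms are given for the seeds, none of which recurs within the group.
miR-9-5p: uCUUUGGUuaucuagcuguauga
miR-129-5p: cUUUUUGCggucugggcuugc
miR-137-3p: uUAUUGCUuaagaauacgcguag
miR-203-3p: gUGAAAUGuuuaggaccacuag
miR-193a-3p: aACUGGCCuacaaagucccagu
Another copy of miR-9, Mir9-1, lay under a peak of 3259 bp in replicate 1 alone. Hox cluster microRNAs in such regions were touched by a peak in 1 list, Mir196b in replicate 1 (2185 bp) and Mir10a in replicate 2 (501 bp).

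Along the genome, regions of a mark kept company with their own kind. The median gap from an H3K27ac region to the next H3K27ac region was 32.9 kb, against 291 kb to the nearest H3K27me3 region. From an H3K27me3 region the median gap was 27.2 kb to the same mark and 128 kb to H3K27ac. The fewer H3K27me3 regions lengthen the gap to that mark. Within 10 kb of an H3K27me3 region lay 92 H3K27ac regions (1.53%), and 2.51% to 4.71% with any 1 of the 4 libraries left out. The next region along the chromosome was H3K27ac for 78.3% of H3K27ac regions, which made up 65.5% of all, and H3K27me3 for 58.8% of H3K27me3 regions, which made up 34.5%.

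**Figure D4:**
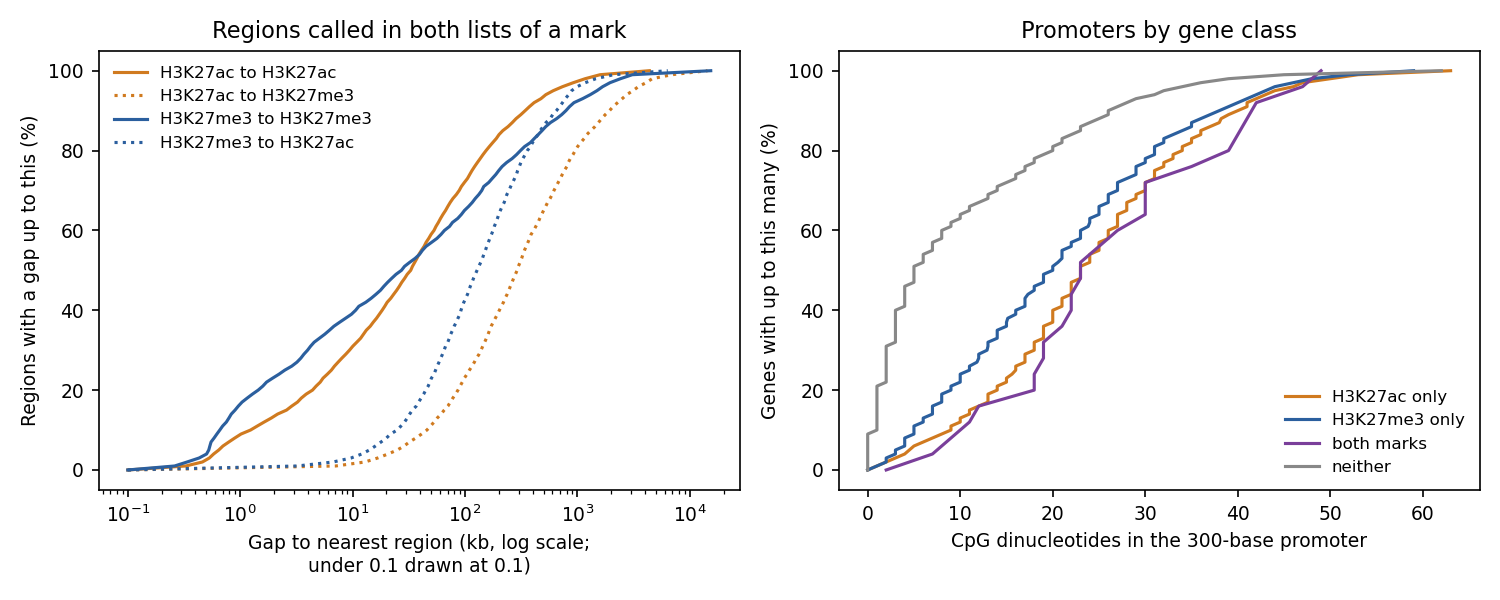
Left, cumulative share of regions by gap to the nearest region of the same mark (solid) or the other mark (dotted) in kb on a log axis; right, cumulative share of genes by CG number in the promoter for each class. The dotted curves lie to the right of the solid ones over most of the range, with medians of 291 and 128 kb against 32.9 and 27.2 kb, and promoters with neither mark have a median of 5 CG.

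Runs of H3K27me3 regions with no H3K27ac region between were longest on chromosomes 8 and 11. On chromosome 8 a run of 26 regions over 1052 kb held Foxf1, Foxc2 and Foxl1, forkhead factors of mesoderm, and Irf8. A run of 19 on chromosome 11 held Rbfox3, Cbx2, Cbx8 and Ccdc40. The Hoxa cluster with Evx1 formed a run of 18 over 159 kb. A run of 17 over 607 kb on chromosome 2 held Slc12a5, a neuronal chloride transporter gene, and Cdh22, a cadherin gene. Hoxc formed one of 15 and Hoxd with Evx2 one of 14 over 112 kb. The longest H3K27ac run, 38 regions on chromosome 13, spanned 10600 kb. Chromosome X had 200 H3K27ac and 29 H3K27me3 regions, or 14.5 H3K27me3 per 100 H3K27ac, where the other chromosomes with regions ranged from 26.1 (chromosome 16) to 74.8 (chromosome 8). On chromosome 8 the H3K27me3 lists held 1066 and 967 peaks against 773 and 719 for H3K27ac (singled out after its values were seen). Every other chromosome with peaks had the reverse order. In regions called in both lists of a mark the order on chromosome 8 was not turned, with 254 for H3K27ac and 190 for H3K27me3.

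Genes more often had a neighbour of their own class than of the opposite one. Of genes with H3K27ac alone 32.0% had a next gene of the same class, and 5.86% one with H3K27me3 alone. For H3K27me3 alone the shares were 18.2% with the same class and 11.2% with the opposite one. Over all genes these classes hold 13.9% and 6.78%, and neighbours can share a peak. The 344 opposite neighbour pairs included some with overlapping spans, of which 2 were picked after their values were seen. Nnat, an imprinted gene inside the span of Blcap, had H3K27me3 peaks of 897 and 646 bp, and Blcap had H3K27ac peaks of 1961 and 1260 bp. Ptbp1, a splicing regulator, had H3K27ac peaks of 3829 and 4303 bp, and its neighbour Plppr3 had H3K27me3 peaks of 2615 and 2764 bp.

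Overlap between the marks involved a small share of peaks. The overlap that unrelated lists of these lengths and widths would have was not computed, so exclusion of the marks is not read from these shares. The H3K27ac peaks touching an H3K27me3 peak by at least 1 bp numbered 206 (1.35%) and 205 (1.36%) in the pairs with the same replicate number, 1 with 1 and 2 with 2. They numbered 125 (0.819%) and 115 (0.764%) in the crossed pairs. Against this, 41.6% ± 0.306 of H3K27ac and 30.5% ± 0.245 of H3K27me3 peaks (n = 2 each) overlapped the other replicate of their own mark. The excess in same-numbered pairs was also seen in control cells, with 106 and 87 peaks against 53 and 25. It was seen between H3K4me3 and either mark too, for example 3533 and 3579 H3K27ac peaks touching H3K4me3 in same-numbered pairs against 3186 and 3255 in crossed ones. What same-numbered libraries share is not given in the labels, and its part in the overlaps was not tested.

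The H3K27ac peaks in these overlaps were narrower and less often repeated than H3K27ac peaks in general, and for H3K27me3 the order was the reverse. In the 4 pairs, 67.0% to 72.2% of overlapping H3K27ac peaks had the minimum width, against 46.2% of all H3K27ac peaks, and 10.7% to 17.6% were found in the other H3K27ac replicate, against 41.6% of all. Of the overlapping H3K27me3 peaks 29.9% to 32.8% had the minimum width, against 55.6% of all H3K27me3 peaks, and 45.1% to 69.4% were found in the other H3K27me3 replicate, against 30.5% of all. No overlapping H3K27ac peak exceeded 1486 bp. In bulk chromatin an overlap does not tell whether the marks lie on the same molecules or in different cells. Without minimum-width peaks, 0.401% of H3K27ac and 0.647% of H3K27me3 peaks overlapped the other mark, on average over the 4 pairs, against 1.07% and 1.42% with them.

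**Figure D5:**
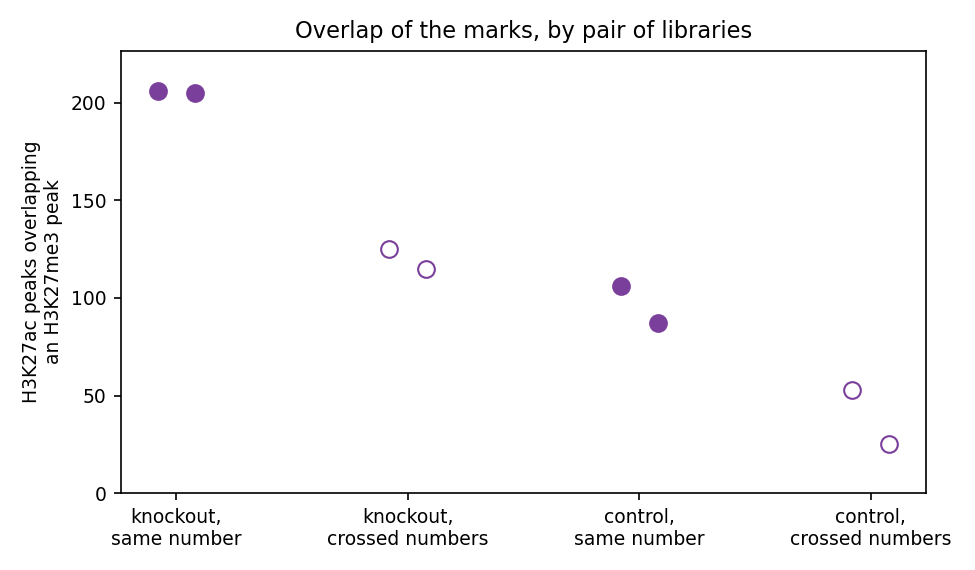
Number of H3K27ac peaks that overlap an H3K27me3 peak in each pair of 1 H3K27ac and 1 H3K27me3 library; filled points are pairs with the same replicate number and open points crossed pairs. In knockout cells the same-numbered pairs have 206 and 205 and the crossed pairs 125 and 115.

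Regions called in both lists of each mark overlapped in 12 places. In the 5 longest overlaps the H3K27ac region lay wholly inside the H3K27me3 region. At Sp9, a zinc finger factor of interneurons, an H3K27ac region of 980 bp at chr2:73272907-73273886 lay within an H3K27me3 region of 8174 bp. At the shared end of Mmp25, a matrix metalloproteinase, and Bicdl2 the widths were 953 and 2114 bp, at Parp8 935 and 2877 bp, at Zfp516 911 and 2555 bp, and at Zswim6 842 and 3293 bp. Sp9 had H3K27ac within 1 kb of a gene end in replicate 1 only (501 bp).

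Of the 32 genes with both marks, 13 carried them at different ends and 19 at a common end. An end counted for a mark when a peak of at least 1 of its lists touched it. Peaks of the marks overlapped in all 4 list pairs at 3 genes (Mmp25, Bicdl2 and Mapk4), in some pairs at 9 and in none at 20. The widest by the narrowest of the 4 peaks was Cadm4, a cell adhesion gene, with H3K27ac of 1171 and 1432 bp at its far end and H3K27me3 of 1218 and 1094 bp at its start. R3hdm4, Nacc2, Fbxo44 and Ccdc106 had the same order, H3K27me3 at the start and H3K27ac at the far end. Pgap3 had the opposite order. Kazald1 (H3K27ac 1270 and 1093 bp) and Cuedc1 (633 and 801 bp) had H3K27ac at the start and H3K27me3 at the far end in both lists and at the start in 1. Pced1b had H3K27me3 of 891 and 5047 bp at its start and H3K27ac of 1149 and 733 bp at its far end, with a further H3K27ac peak at the start in replicate 2. Mapk4 had H3K27ac of 919 and 900 bp and H3K27me3 of 635 and 701 bp at the same end. Gata3, a trophectoderm and T cell factor, had H3K27ac of 823 and 890 bp at its far end and H3K27me3 of 627 and 3209 bp at the other.

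In control cells, whose H3K27me3 lists were shorter, few genes had both marks as well. In control 1988 genes (9.08%) had H3K27ac and 792 (3.62%) H3K27me3 in both lists, and 5 had both, or 0.252% of the H3K27ac genes. Covered length differed 2.97-fold between the marks in control and 1.55-fold in knockout, and the exact permutation of genotype labels within each mark, which can go no lower than 0.0556, gave p = 0.33 for that difference. The share of H3K27ac peaks overlapping H3K27me3 of the same genotype (both lists joined) was 1.66% and 1.67% in knockout against 0.875% and 0.717% in control, a difference of 0.872 points (exact permutation p = 0.33). The share of H3K27me3 peaks overlapping H3K27ac was 2.62% and 2.65% against 2.03% and 1.89% (0.674 points, exact permutation p = 0.33). The second difference turned negative, to -0.556 and -0.513 points, when H3K27ac knockout replicate 1 or 2 was left out and with it part of the joined list. The first difference fell to 0.294 and 0.260 points (exact permutation p = 0.67) without H3K27me3 knockout replicate 1 or 2. With the widest peaks of each list taken to equal length, which changes list length and peak width together, the differences were 0.119 (exact permutation p = 0.67) and 0.198 points (exact permutation p = 0.33).

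Few genes crossed from mark to mark between genotypes. In both control lists 1988 genes had H3K27ac and 792 had H3K27me3, with or without the other mark. Over all genes, 13.9% had H3K27ac alone and 6.78% H3K27me3 alone in knockout. Of genes with H3K27ac alone in control 1479 had H3K27ac alone in knockout, 366 had calls resting on single lists and 95 had neither mark. Of genes with H3K27me3 alone in control 391 had H3K27me3 alone in knockout. Calls resting on single lists were found at 224 of them, and 51 had H3K27me3 in both lists and H3K27ac in 1. In the direction from H3K27ac to H3K27me3 there were 2 genes, named after their values were seen, Sp6 (H3K27me3 501 and 820 bp in knockout) and Lancl3 (627 and 501 bp), and in the reverse direction 0. Genes with H3K27ac alone in knockout had been called in single control lists of 1 or both marks in 975 cases and in no control list in 586. For H3K27me3 alone these numbers were 643 and 427. At Sp6 the control H3K27ac peaks were 910 and 635 bp. At Lancl3 they were 501 and 501 bp, so its calls were at the minimum width but for 1. Of genes with H3K27me3 alone in control, 61 had neither mark in knockout, among them T, the mesoderm factor Brachyury, with control peaks of 1210 and 923 bp.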

How the data were processed

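Chromatin immunoprecipitation with sequencing was deposited as 1 BED peak list per library, so replicates were called separately. The notes of the submitters name CASAVA, Trimmomatic 0.38, Bowtie2 2.4.1, SAMtools, HOMER and mm10, with no roles. The deposited values used are peak starts and ends in bp; the score column is 1 for every peak, and no signal, height or read number was used, so depth is unknown. The protocol per the labels added spike-in chromatin, and its use in these lists is not given in the sources used here.

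Peaks were placed against 21887 protein-coding genes of RefSeq (GRCm38.p6, the mm10 assembly) with 1 kb windows at both ends of each gene span, with overlap of at least 1 bp. A further 5 peaks on unplaced sequences were left out of gene placement. Differences between lists were tested by exact two-sided permutation of the 6 assignments of 2 against 2 libraries. Software was Python 3.11.15 with numpy 2.4.6, pandas 2.3.3, scipy 1.17.1 and matplotlib 3.10.9. On simulated data, 200 planted genes of 21887 were recovered with 0 extra. Each planted peak lay over an end of a gene picked to have no other gene's window nearby. The result thus checks the interval code and not the accuracy of calls on real peaks.

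The members and the 34 gene lists (2070 genes, and 210 of 215 names found) were chosen with earlier results of these data known. Named genes were the 10 of each class with the largest smaller width (predicted genes left out), Mettl14 and Mettl3, up to 4 members of each class of each list, and the genes of the 5 widest regions and overlaps; some of these genes are not reported here. Alternatives were the window size, the width minimum, equal list lengths, the overlap minimum, other distances and leaving out each library, and, chosen after seeing the data, RefSeq starts only and crossed pairs only.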

Additional observations from a re-analysis of the deposited data

Results flagged for a closer look

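In 2 measures the marks were ordered one way in every pair of knockout libraries and the other way in every pair of control libraries. At gene ends the H3K27ac share exceeded that of H3K27me3 by 1.02 percentage points in knockout cells, while the same difference was -5.19 points in control cells (exact permutation of genotype within mark, p = 0.278). For intergenic peaks the difference was -2.32 points in knockout and 3.30 points in control (p = 0.0556 by the same exact permutation, the smallest it can give). Both knockout differences change sign with another window or without minimum-width peaks.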

How the results depend on the processing

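Of 144 alternative values over 21 results, 95 stayed within the limits set, 41 moved and 8 changed sign. Every sign change is given here. A tested difference counted as staying whenever its sign held, whatever its size. For example, the knockout minus control difference for H3K27ac peaks overlapping H3K27me3 fell from 0.872 to 0.119 points at equal list length. Counts had a fold limit, and other values had to stay within the spread between libraries, or unchanged where no spread was taken. With windows of 2500 bp the gene-end difference was -7.24 and the intergenic one 0.236 points, H3K27me3 genes numbered 2585 and genes with both marks 92; with 500 bp the latter were 1096 and 10. Without minimum-width peaks the differences were -3.63 (gene ends), -2.03 (gene bodies) and 5.66 points (intergenic), H3K27me3 genes 1121, genes with both marks 11, overlapping peaks 0.401% (H3K27ac) and 0.647% (H3K27me3), and H3K27ac regions within 10 kb of H3K27me3 0.696%. At equal list length these were -1.45 points (gene bodies), 0.804% (H3K27me3 peaks overlapping) and 1.43% (within 10 kb). Within 5 kb the share was 0.715% and within 50 kb 11.2%. RefSeq starts alone gave 21 genes with both marks, and crossed pairs alone 0.791% and 1.05% overlap. The cause of these changes was not tested, except that windows, distances and list lengths act by construction.

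Leaving out 1 library gave 3155 to 4833 H3K27ac genes, 1717 to 2856 H3K27me3 genes, 68 to 132 with both marks, H3K4me3 at 67.1% to 82.6% of genes with H3K27ac alone, 5.62% to 13.7% with H3K27me3 alone and 25% to 59.4% with both, 2.51% to 4.71% within 10 kb, and -0.556 to 1.82 points for H3K27me3 peaks overlapping H3K27ac, knockout minus control. For H3K27ac peaks overlapping H3K27me3 that difference was 0.260 to 1.23. The former was -0.556 and -0.513 without H3K27ac knockout replicate 1 or 2. Counts that need both lists rise by construction when 1 is left out.

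With the replicate block the differences are unchanged, such as 0.412 (log2) in peak number, and an exact sign-flip test over 2 pairs cannot go below p = 0.5. Replicate 1 minus replicate 2 gene calls of the 2 marks had r = 0.0159 across 21887 genes, which are not independent. Of these genes 12053 had no call in any list, so this value does not speak to overlaps of single peaks. Those were more frequent in same-numbered knockout pairs, with 206 and 205 H3K27ac peaks against 125 and 115 in crossed pairs. The labels name no shared batch, and what same-numbered libraries share was not tested.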
